A study of Homo sapiens with 9 samples.

Results

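The interferon-stimulated genes (ISGs) described here are 52 genes of the 58735 in the deposited count table. They were chosen by name, as genes that cells switch on in response to interferon, and each of the 52 names matched 1 gene of the table. Earlier results of these data were known when they were chosen. They were grouped by function into 11 roles: RNA sensors, STAT and IRF factors, the OAS, IFIT and IFITM families, ISG15 conjugation, PARPs with DTX3L, TRIM ligases, PML nuclear body proteins, IFI genes and other antiviral effectors. RNA was sequenced from MIA PaCa-2, an established human pancreatic carcinoma line that the labels give as wild-type, in 3 libraries per treatment. The cells received 0.1% DMSO (the vehicle), 1 μM compound 1, an inhibitor of the kinases TBK1 and IKKε, or 1 μM SCH772984, an inhibitor of ERK1/2, each for 24-h. The labels name no added interferon or virus. The cells are a single line, and nothing in the labels says whether libraries of a group came from separate cultures, so the p-values measure the spread between these libraries, which may be technical.

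Type I interferon binds its receptor on the cell surface, and the kinases JAK1 and TYK2 then phosphorylate STAT2. It binds IRF9 and acts in the nucleus within the complex ISGF3, which recognizes a short promoter sequence, the interferon-stimulated response element, and turns on ISGs. Upstream, RNA and DNA sensors signal through TBK1 and IKKε to IRF3, which induces interferon and can bind similar elements itself. ISG products sense viral RNA, block viral entry, translation or release, and attach the ubiquitin-like protein ISG15 to other proteins.

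The response element is shown here because it is the sequence these genes are known to share. In RefSeq promoters (GRCh38.p14, 250 bases before to 50 bases after each start), the core of the element, GAAA and GAAA with any 2 bases between them, was searched on both strands, and no other motif was searched. Of the 52 members, 42 matched a promoter, and 29 of these (69.0%) held the motif, against 4.38% of 27305 genes in the whole promoter table. DHX58, IRF7, OAS2, OASL, IFIT2, IFITM2, USP18, PARP10, TRIM22 and PML had no entry. The motif was present in 16 of the 23 promoters (69.6%) of members that rose with SCH772984, in 3 of 5 (60.0%) of those tested that passed in neither direction and in 8 of 12 (66.7%) of those with too few counts to test. A match describes the letters in the window and does not show that a factor binds there. In 8 members that rose with SCH772984, the 50 bases around a motif read as follows on the strand of the gene, 5′ to 3′, with the motif or its reverse complement in capitals.
BST2: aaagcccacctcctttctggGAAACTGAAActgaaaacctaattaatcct
IFI6: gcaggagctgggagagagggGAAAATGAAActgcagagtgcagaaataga
IFIT1: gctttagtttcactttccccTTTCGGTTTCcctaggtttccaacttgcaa
LGALS3BP: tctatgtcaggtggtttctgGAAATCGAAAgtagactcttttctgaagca
PARP14: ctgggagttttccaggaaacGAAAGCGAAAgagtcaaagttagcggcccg
PARP9: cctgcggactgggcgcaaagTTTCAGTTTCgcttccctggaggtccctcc
DTX3L: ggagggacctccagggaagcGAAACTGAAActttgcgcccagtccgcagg
ISG15: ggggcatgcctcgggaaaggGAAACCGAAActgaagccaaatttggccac
The stretches lie at chr19:17405731-17405780 (-) for BST2, chr1:27672278-27672327 (-) for IFI6, chr10:89392500-89392549 (+) for IFIT1, chr17:78979952-78980001 (-) for LGALS3BP, chr3:122680790-122680839 (+) for PARP14, chr3:122564312-122564361 (-) for PARP9, chr3:122564312-122564361 (+) for DTX3L and chr1:1013370-1013419 (+) for ISG15, with the strand of the gene in parentheses. Their motifs begin 130 bases before the start in BST2, 115 in IFI6, 103 in IFIT1, 58 in LGALS3BP, 29 in PARP14, 41 in PARP9, 6 in DTX3L and 107 in ISG15. PARP9 and DTX3L are transcribed away from each other and hold the same motif, at chr3:122564332-122564341, which they read on opposite strands.

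The same letters stood in promoters of members that did not rise with SCH772984. They are shown for IFITM1 and PLSCR1, which fell, and for IFITM3, IFIT5 and EIF2AK2, which passed in neither direction.
IFITM1: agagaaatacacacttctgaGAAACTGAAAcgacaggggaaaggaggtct
PLSCR1: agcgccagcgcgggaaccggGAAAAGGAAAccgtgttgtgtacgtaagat
IFITM3: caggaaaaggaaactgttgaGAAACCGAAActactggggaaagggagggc
IFIT5: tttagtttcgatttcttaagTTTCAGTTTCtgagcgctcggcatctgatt
EIF2AK2: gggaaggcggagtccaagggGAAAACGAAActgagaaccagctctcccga
These stretches lie at chr11:314014-314063 (+) for IFITM1, chr3:146544657-146544706 (-) for PLSCR1, chr11:320866-320915 (-) for IFITM3, chr10:89414544-89414593 (+) for IFIT5 and chr2:37156957-37157006 (-) for EIF2AK2. The motif begins 6 bases before the start in IFITM1, 79 in PLSCR1, 35 in IFITM3, 4 in IFIT5 and 6 in EIF2AK2. Presence of these letters in the window was thus not limited to members that rose, and 2 of the 2 fallen members with a promoter held them. With so few members that fell or did not pass, the shares cannot show whether the letters separate the groups.

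Library totals ranged from 9464432 to 13887859 counts, and compound 1 replicate 1 stood apart, with a chi-square per degree of freedom of 10.1 and 7.61 over all genes against the other libraries of its group, which differed from each other by 2.66. Of 7 markers of the carcinoma line (6 epithelial genes and the mesenchymal gene VIM), KRT8, KRT18, KRT19 and VIM had 1840 to 28788 counts per library, whereas EPCAM had 0 in all 9 libraries and CDH1 and KRT7 had at most 5. PTPRC, which marks leukocytes, and CD3E, which marks T cells, also had 0 in all 9 libraries, and the 6 leukocyte markers together summed to 31 to 40 counts per library with DMSO, 21 to 33 with compound 1 and 11 to 26 with SCH772984. With SCH772984, where 37.2% of all genes tested were higher and 35.5% lower, KRT8, KRT18 and VIM fell and KRT19 did not pass, CD14, the 1 tested leukocyte marker of 6, fell, and so did CDH5, the 1 tested of 3 endothelial markers. The 2 tested fibroblast markers of 5, COL1A1 and COL1A2, rose (summed level of the 5 markers 461.5 to 510.2 CPM with DMSO and 989 to 1111 with SCH772984), and nearly all of that sum was COL1A2, since DCN and LUM had at most 1 count in any library and PDGFRA at most 6. The part of these shifts in the results below was not tested. In bulk libraries a change in the number of cells that make a transcript and a change in RNA per cell cannot be told apart, and without spike-in RNA a fold change is relative to the other genes.

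ISG levels in these cells covered a wide range before any inhibitor was added. Per kilobase of gene length, the highest levels with DMSO were those of ADAR, which edits double-stranded RNA, at 45.9 ± 0.977 CPM per kb (TMM-normalized counts scaled to library size and gene length, mean ± SD, n = 3) and of IFITM3, which blocks viral entry, at 40.3 ± 2.10. IFITM2 (17.96 ± 0.501) and IFITM1 (15.7 ± 1.99) came next, followed by TRIM25 (11.8 ± 0.344), a ligase that acts on the sensor RIG-I, and by IFI6 (10.7 ± 0.541), whose spread lay close to that of TRIM25 without touching it. The kinase EIF2AK2, which stops translation on sensing viral RNA, stood at 9.67 ± 0.306. At the other end, MX1 was at 0.0539 ± 0.0246, although it is among the most widely used readouts of interferon action.

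Many members were close to silent. IFI44L and EPSTI1 had 0 counts in all 9 libraries, 9 members had at most 3 counts in every library, and 30 had at least 10 in every library. A count of 0 over the 94774249 counts of all libraries allows a level of up to 0.0317 CPM (3 counts, counting error only). The members at or under 3 counts in every library of at least 1 group were CMPK2, EPSTI1, IFI27, IFI44, IFI44L, OAS1, OAS2, OASL, RSAD2, RTP4, SAMD9, SAMD9L, TRIM22 and XAF1. Of the 4 genes of the OAS family, most of which make oligoadenylates on sensing double-stranded RNA, only OAS3 had at least 10 counts in every library. RSAD2, which encodes viperin and is a strong interferon target elsewhere, had 0, 4 and 0 counts with DMSO, 0, 0 and 0 with compound 1 and 2, 2 and 2 with SCH772984.

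**Figure D1:**
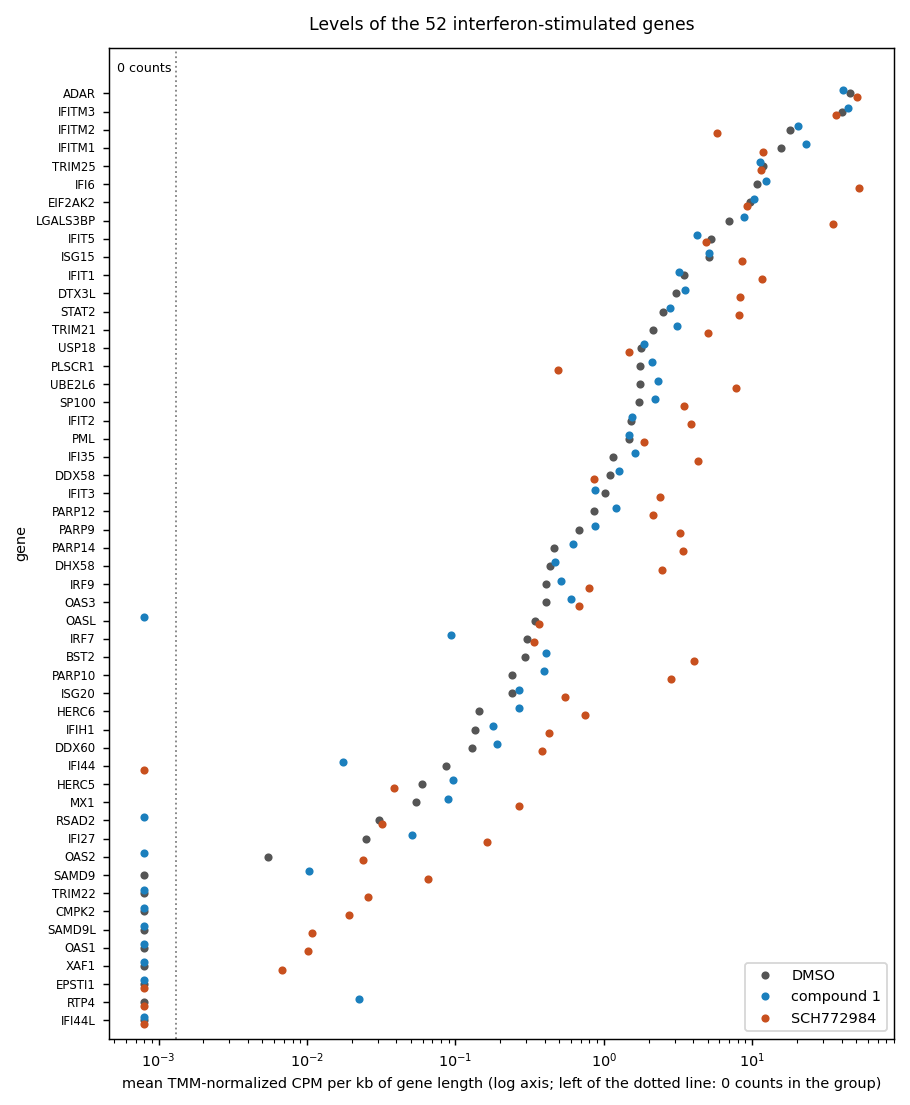
Mean level of each of the 52 genes in each treatment, in TMM-normalized CPM per kilobase of gene length on a log axis; genes are ordered by their DMSO level, each point is the mean of 3 libraries, and points left of the dotted line had 0 counts in the group. ADAR and IFITM3 lead with DMSO, and IFI44L and EPSTI1 lie left of the line in all 3 treatments.

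The comparison of SCH772984 with DMSO asked which ISGs follow ERK activity. After ERK inhibition most of the measurable ISGs were higher, and every PARP gene of the list was among them. BST2, which tethers budding virions to the cell surface, had the largest fitted rise (13.8-fold), followed by PARP10 (11.7-fold) and PARP14 (7.46-fold). BST2 passed the filter on low counts only through the SCH772984 libraries, where it was high. Among the members that passed it in each fit, PARP10 led. The values of BST2 and PARP10 moved with single DMSO libraries. BST2 was 26.6-fold higher without DMSO replicate 3, and PARP10 was 20.4-fold higher without DMSO replicate 1 and then ranked above BST2 (4.35 against 3.33 on the log2 scale). The IFITM family and PLSCR1 went the other way or did not pass. Of the 52 members, 37 had enough counts to be tested by edgeR's quasi-likelihood test, 27 were higher and 3 lower at an adjusted p under 0.05, and 7 passed in neither direction. The same test called 37.2% of all 13834 genes higher and 35.5% lower, so calls were common in general with SCH772984. Over all genes these were 5150 higher and 4916 lower, and 6242 and 3911 with scaling by library size alone, which gave 28 and 2 for the members. At least 2-fold, 22 members were higher and 2 lower, against 18.2% and 10.6% of all genes. The 22 include BST2, MX1 and IFIH1, which passed the filter on low counts only through the SCH772984 libraries. At an unadjusted p under 0.05, 27 members were higher and 3 lower as well, against 38.0% and 36.2% of all genes.

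The median log2 fold change of all 37 tested members, with the 4 named below, was 1.26, against 0.03 over all genes tested. In 27 members all 3 SCH772984 libraries lay above all 3 DMSO libraries and in 3 all lay below, against 36.8% and 37.4% of all genes. Of the 37 members, 4 (BST2, MX1, IFIH1 and OASL) passed the filter on low counts only in fits that held the SCH772984 libraries, and the other 33 passed it in each fit. Among those 33, 24 were higher and 3 lower. Where every library had to hold at least 10 counts, 30 members were tested, 21 were higher and 3 lower, against 4424 and 4295 of 11970 genes.

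**Figure D2:**
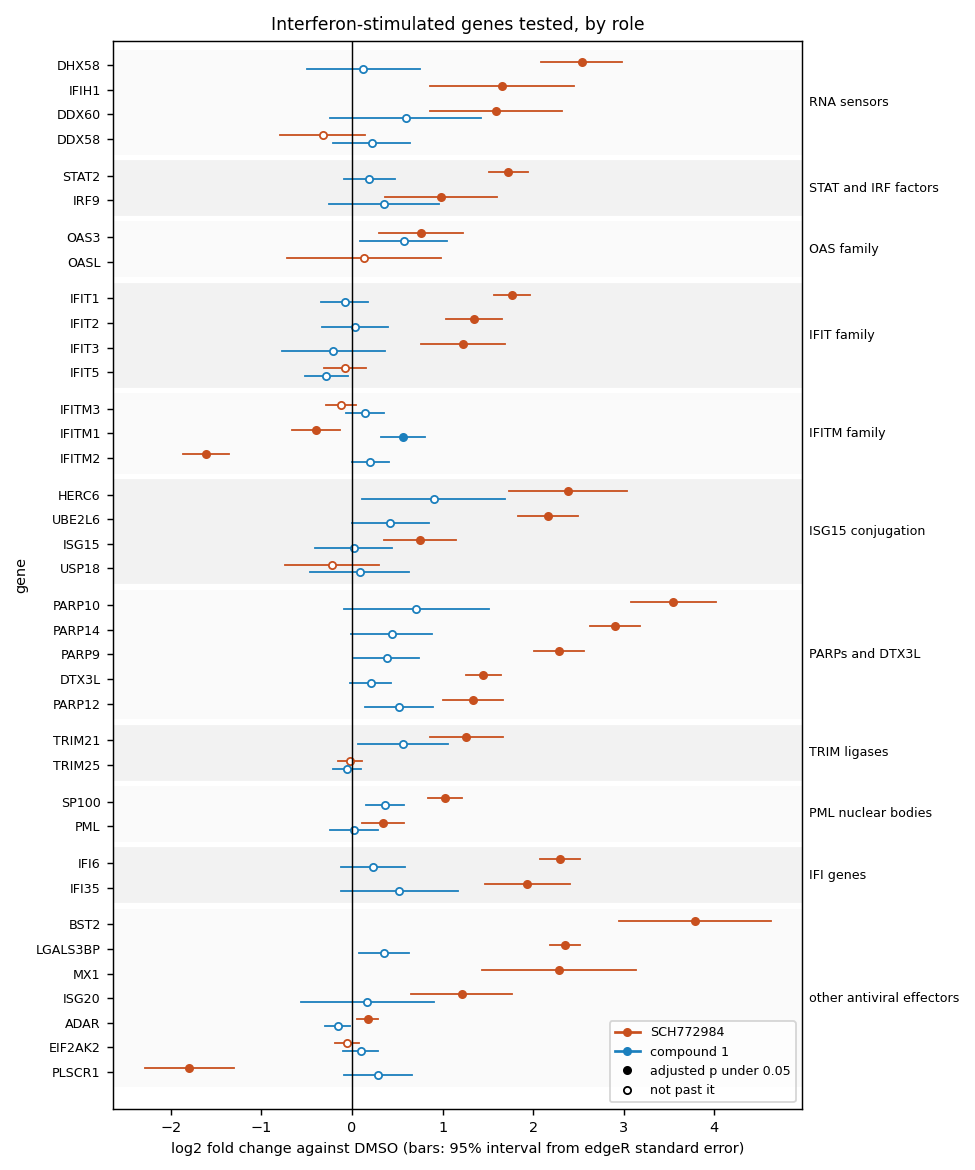
Log2 fold change against DMSO of each tested member, by role, with SCH772984 in orange and compound 1 in blue; bars are 95% intervals from edgeR's standard error, and filled points passed an adjusted p under 0.05. The orange points of the PARP group all lie above 1, those of the IFITM family lie below 0 (IFITM3 would lie at 0.055 with scaling by library size alone), and of the blue points only IFITM1 is filled.

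The PARPs and DTX3L transfer ADP-ribose or ubiquitin to other proteins, and all 5 rose by at least 2-fold with SCH772984, against 18.2% of all genes. PARP14 (ENSG00000173193, chromosome 3, 122680618 to 122730840) had 5.16, 5.45 and 3.86 CPM with DMSO, 4.90, 6.41 and 8.10 with compound 1 and 37.7, 35.9 and 33.3 with SCH772984. The SCH772984 libraries stood far above the other 6, and those of compound 1 overlapped DMSO. PARP14 rose by 2.90 on the log2 scale (SE 0.14, adjusted p = 1.07e-22). PARP10, a mono-ADP-ribosyltransferase, had 2.68, 0.890 and 0.773 CPM with DMSO and 17.1, 15.2 and 19.01 with SCH772984, a rise of 3.55 (SE 0.24, adjusted p = 1.48e-15). DMSO replicate 1 was the highest of its group and still below each SCH772984 library. Of the exonic bases of PARP10, 8.64% overlap GRINA or SPATC1 on the opposite strand, and the strand setting is not known.

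PARP9 and DTX3L encode partners that act as a complex and are transcribed from a shared promoter region. PARP9 had 6.19, 5.56 and 6.40 CPM with DMSO and 30.5, 31.1 and 26.1 with SCH772984. DTX3L, a ubiquitin ligase, had 17.6, 18.03 and 18.5 with DMSO and 51.2, 49.6 and 45.1 with SCH772984. PARP9 thus rose by 2.29 (SE 0.14, adjusted p = 5.03e-19) and DTX3L by 1.45 (SE 0.10, adjusted p = 1.76e-17), each with no overlap of the groups. They share 217 exonic bases on opposite strands, 2.43% of the exons of PARP9 and 3.70% of those of DTX3L. PARP12 rose by 1.34 (SE 0.17, adjusted p = 1.69e-09).

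**Figure D3:**
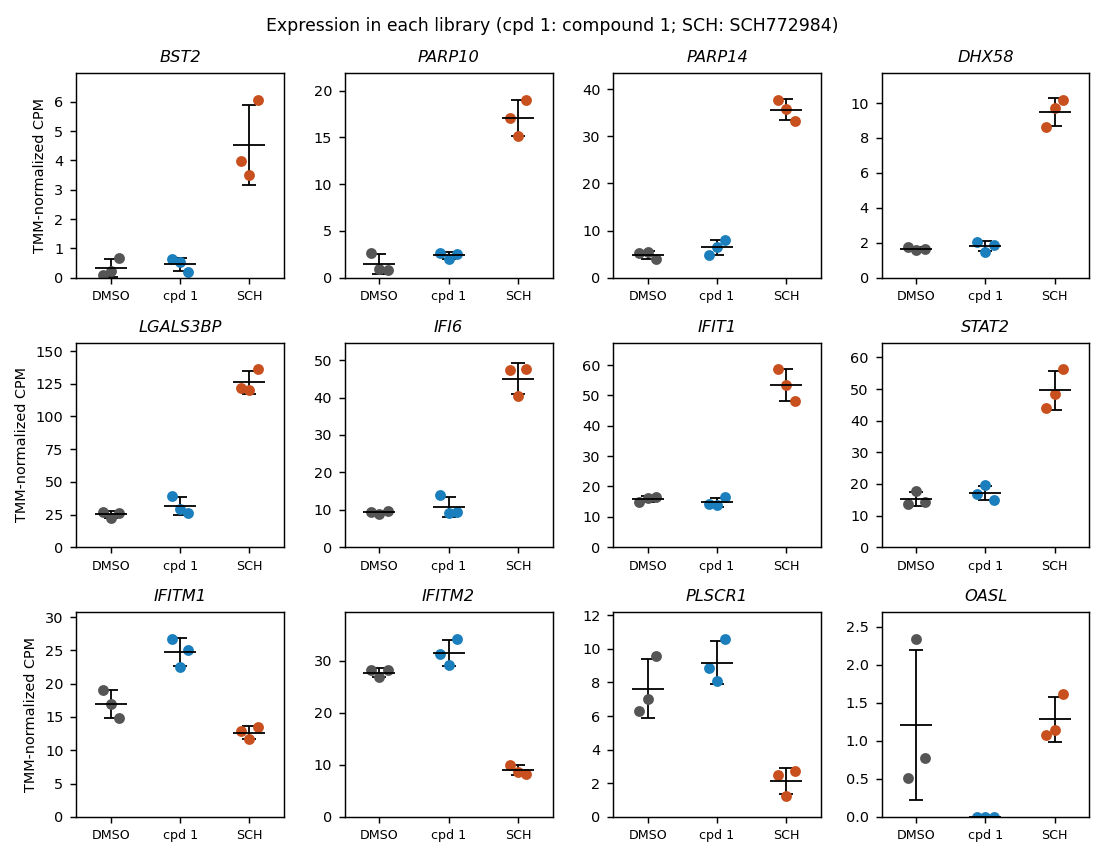
TMM-normalized CPM (counts scaled to library size) in each library for 12 members; each point is 1 library, the long line is the mean and the bar the SD of 3 libraries. SCH772984 libraries lie above all others for BST2, PARP10, PARP14, DHX58, LGALS3BP, IFI6, IFIT1 and STAT2 and below them for IFITM1, IFITM2 and PLSCR1, and OASL is at 0 in the 3 compound 1 libraries.

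Of the 4 sensors of viral RNA, 3 rose and each by at least 2-fold, against 18.2% of all genes. DHX58, which encodes LGP2, had 1.75, 1.56 and 1.66 CPM with DMSO and 8.60, 9.72 and 10.2 with SCH772984, a rise of 2.53 (SE 0.23, adjusted p = 1.95e-13). IFIH1, which encodes MDA5, went from 4, 7 and 8 counts to 28, 29 and 27, and rose by 1.66 (SE 0.41, adjusted p = 0.000366). IFIH1 passed the filter on low counts only through the SCH772984 libraries, where it was high, while DHX58 and DDX60 passed it in each fit. The helicase DDX60 rose by 1.59 (SE 0.37, adjusted p = 2e-04). DDX58, which encodes RIG-I, was the exception, with 4.54, 4.67 and 5.08 CPM with DMSO against 3.06, 4.98 and 3.23 with SCH772984. Its groups overlapped and its log2 fold change of -0.32 did not pass (SE 0.24, adjusted p = 0.225), although without SCH772984 replicate 2 it was lower (-0.59, adjusted p = 0.0488).

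Among the factors that form ISGF3, STAT2 had 13.7, 17.7 and 14.3 CPM with DMSO and 44.1, 48.5 and 56.2 with SCH772984. No SCH772984 library came near the DMSO range, and STAT2 rose by 1.73 (SE 0.11, adjusted p = 2.01e-18). IRF9 rose by 0.98 (SE 0.32, adjusted p = 0.0055), from 13, 16 and 14 counts to 33, 37 and 49. Every 100-base stretch of the IRF9 transcript also occurs in the readthrough gene AL136295.5, so its count is uncertain. IRF7, which amplifies interferon production, had too few counts to be tested, with 4, 8 and 10 for DMSO, 4, 2 and 1 for compound 1 and 6, 9 and 21 for SCH772984.

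The IFIT genes encode proteins that bind foreign RNA and are neighbours on chromosome 10. IFIT1 (ENSG00000185745, 89392546 to 89406486) had 14.9, 16.2 and 16.7 CPM with DMSO and 58.5, 53.5 and 48.3 with SCH772984, with no overlap, and rose by 1.77 (SE 0.10, adjusted p = 5.21e-20). IFIT2 rose by 1.35 (SE 0.16, adjusted p = 3.89e-10) and IFIT3 by 1.23 (SE 0.24, adjusted p = 1.24e-05). Other genes, LIPA and AL353751.1, overlap 10.3% of the exonic bases of IFIT2. IFIT5 lies next to them and did not pass. It had 21.6, 22.6 and 18.9 CPM with DMSO and 21.4, 16.9 and 20.6 with SCH772984, a log2 fold change of -0.08 (SE 0.12, adjusted p = 0.574).

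The IFITM proteins sit in membranes and restrict viral fusion, and their 3 genes are neighbours on chromosome 11. None of the 3 was higher and 2 were lower with SCH772984, against 37.2% and 35.5% of all genes. So few genes cannot be set apart from those shares. IFITM2 (ENSG00000185201, 307631 to 315272) had 28.2, 26.8 and 28.1 CPM with DMSO and 10.0, 8.66 and 8.15 with SCH772984, and fell by 1.61 (SE 0.13, adjusted p = 3.97e-15). IFITM1 had 19.1, 16.9 and 14.8 CPM with DMSO and 12.8, 11.7 and 13.5 with SCH772984, and fell by 0.40 (SE 0.14, adjusted p = 0.00892). In both genes every SCH772984 library lay below every DMSO library. IFITM3 had 57.3, 51.6 and 54.0 CPM with DMSO and 47.4, 45.3 and 54.9 with SCH772984, where the groups overlapped (log2 fold change -0.12, SE 0.08, adjusted p = 0.195), and it was lower without SCH772984 replicate 3 (-0.20, adjusted p = 0.0275).

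The fall of IFITM1 did not pass with scaling by library size alone (log2 fold change -0.22, adjusted p = 0.138) or without DMSO replicate 1 (-0.32, adjusted p = 0.0684). IFITM1 and IFITM2 overlap on the same strand by 351 exonic bases, and 37.7% of the 100-base stretches of the IFITM1 transcript occur in another IFITM gene, so how reads were divided among these genes is uncertain. The noncoding gene AC136475.5 overlaps 21.3% of the exonic bases of IFITM3 on the opposite strand.

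ISG15 is conjugated to proteins by the E2 enzyme UBE2L6 and the ligase HERC5, and USP18 removes it. UBE2L6 had 3.92, 4.12 and 3.53 CPM with DMSO and 18.9, 16.5 and 16.0 with SCH772984, and rose by 2.17 (SE 0.17, adjusted p = 1.99e-15). HERC6, a relative of HERC5 that was grouped with this role, went from 7, 6 and 10 counts to 47, 58 and 64, a rise of 2.38 (SE 0.33, adjusted p = 2.2e-08). Both were clear of the DMSO range in all 3 libraries. ISG15 itself rose by 0.75 (SE 0.20, adjusted p = 0.00103), from 5.37, 5.34 and 3.75 CPM to 6.37, 7.60 and 9.98. USP18 did not pass (log2 fold change -0.22, SE 0.26, adjusted p = 0.452), and 15.4% of its 100-base stretches are shared with USP41. HERC5 was not tested, with 5, 2 and 1 counts for DMSO and 5, 0 and 2 for SCH772984.

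BST2 (ENSG00000130303, chromosome 19, 17402939 to 17405648) had 1, 2 and 6 counts with DMSO, 6, 5 and 2 with compound 1 and 48, 43 and 90 with SCH772984. The SCH772984 libraries were high and the other 6 low, and the rise was 3.78 on the log2 scale (SE 0.43, adjusted p = 1.25e-10). MX1, a GTPase that traps viral nucleocapsids, went from 6, 2 and 5 counts to 29, 28 and 33 and rose by 2.29 (SE 0.43, adjusted p = 8.92e-06). Both BST2 and MX1 were tested only because of their SCH772984 counts. LGALS3BP, a secreted glycoprotein, had 26.8, 22.0 and 26.4 CPM with DMSO and 121.8, 120.5 and 136.0 with SCH772984. It rose by 2.35 (SE 0.08, adjusted p = 1.7e-27), with all 3 SCH772984 libraries above the DMSO range. The nuclease gene ISG20 rose by 1.21 (SE 0.29, adjusted p = 0.000236).

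ADAR and EIF2AK2 act on double-stranded RNA and had high levels in every group. ADAR had 433.6, 448.8 and 451.0 CPM with DMSO and 524.9, 473.8 and 484.3 with SCH772984. It rose by only 0.17 (SE 0.06, adjusted p = 0.00796), and the adjusted p was 0.0741 without SCH772984 replicate 1, 0.0858 without DMSO replicate 1, 0.0533 without DMSO replicate 2 and 0.068 without a filter on low counts. EIF2AK2 had 101.0, 103.5 and 107.5 CPM with DMSO and 102.6, 98.4 and 95.2 with SCH772984, and did not pass (log2 fold change -0.05, SE 0.07, adjusted p = 0.491). PLSCR1, a phospholipid scramblase with antiviral activity, had 6.29, 7.01 and 9.60 CPM with DMSO and 2.48, 1.23 and 2.70 with SCH772984. Its SCH772984 libraries lay below all DMSO libraries, and it fell by 1.80 (SE 0.25, adjusted p = 2.47e-08).

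IFI6, a mitochondrial and endoplasmic reticulum protein gene, had 9.39, 8.79 and 9.71 CPM with DMSO and 47.3, 40.4 and 47.5 with SCH772984, and rose by 2.30 (SE 0.11, adjusted p = 2.3e-22). Per kilobase this brought IFI6 to 52.1 ± 4.66 CPM per kb, close to ADAR at 51.0 ± 2.79, so the 2 levels did not differ beyond their spread. IFI35 rose by 1.94 (SE 0.24, adjusted p = 1.02e-09). SP100, a scaffold of PML nuclear bodies, had 23.1, 20.8 and 21.3 CPM with DMSO and 45.1, 42.5 and 43.5 with SCH772984, with no overlap, and rose by 1.03 (SE 0.10, adjusted p = 4.76e-13). PML rose by 0.34 (SE 0.12, adjusted p = 0.00789), a call lost without DMSO replicate 2 (0.29, adjusted p = 0.0529). In SP100, 11.8% of the 100-base stretches are shared with the pseudogene HMGB1P3.

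Of the TRIM ligases, TRIM21, a cytosolic antibody receptor, went from 44, 48 and 22 counts to 118, 121 and 142 and rose by 1.26 (SE 0.20, adjusted p = 5.09e-07). TRIM25 had 109.2, 111.3 and 115.6 CPM with DMSO and 113.6, 105.2 and 106.8 with SCH772984. Its groups overlapped, and its log2 fold change was -0.02 (SE 0.07, adjusted p = 0.758), or 0.15 with scaling by library size alone (adjusted p = 0.0419). OAS3 rose by 0.76 (SE 0.24, adjusted p = 0.00373), from 26, 36 and 31 counts to 54, 79 and 88.

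Among members too low to be tested, SAMD9, a restriction factor of poxviruses, had 0 counts in the 3 DMSO libraries, 2, 0 and 0 with compound 1 and 5, 3 and 10 with SCH772984. Against the level that 3 counts over the DMSO group would give, SAMD9 was at least 4.25-fold higher with SCH772984. IFI27 had 3, 0 and 0 counts with DMSO and 7, 7 and 13 with SCH772984, and TRIM22 had 0, 0 and 0 against 0, 4 and 2. IFI44 had 3, 0 and 2 counts with DMSO and 0 in each SCH772984 library, at least 2.35-fold lower, and without DMSO replicate 1 or 3 at most 3 counts were left, which gives no bound.

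The comparison of compound 1 with DMSO asked which ISGs follow TBK1 and IKKε, kinases that lie upstream of interferon production. Here few ISGs passed the test. IFITM1 was the single member that passed, at 1.48-fold higher, and OASL, too low for the test, had no counts in any compound 1 library. Of the 52 members, 33 were tested, 1 was higher and 0 were lower at an adjusted p under 0.05, against 0.490% and 0.374% of 12849 genes. Those shares stand for 63 higher and 48 lower genes, and scaling by library size alone gave 85 and 25 with the members' counts as before. By the unadjusted p, 7 were higher and 2 lower, against 7.35% and 7.69% of all genes, whereas library-size scaling gave 9 higher and 0 lower members at that p, and DESeq2 gave 4 and 1. In 9 members (27.3%) all compound 1 libraries lay above all DMSO libraries and in 2 (6.06%) all lay below, against 9.37% and 12.1% of all genes. DESeq2 called 1 higher and 0 lower on the same genes. The comparison shares its DMSO libraries with the one above, so similar signs in both are not independent.

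IFITM1 (ENSG00000185885, chromosome 11, 313506 to 315272) had 19.1, 16.9 and 14.8 CPM with DMSO and 26.7, 22.6 and 25.1 with compound 1. Every compound 1 library lay above every DMSO library, as in 9.37% of all genes, and the rise was 0.57 on the log2 scale (SE 0.12, adjusted p = 0.0464). It also passed without compound 1 replicate 1. The adjusted p was 0.0545 without compound 1 replicate 2, 0.135 without replicate 3, and 0.159, 0.284 and 0.206 without DMSO replicates 1, 2 and 3, with a log2 fold change of 0.48 to 0.66. IFITM2 had 28.2, 26.8 and 28.1 CPM with DMSO and 31.2, 29.2 and 34.2 with compound 1, also without overlap (log2 fold change 0.20, SE 0.10, adjusted p = 0.368).

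The other 32 tested members did not pass. The median log2 fold change of the 33 was 0.21, against 0.00 over all genes, with a range from -0.28 to 0.90, and it was above 0 in 28 of them (84.8%, against 50.5% of all genes tested). The values share their DMSO libraries and members are not independent, so this count carries no test. The highest values were those of HERC6 at 0.90 (SE 0.40, adjusted p = 0.304) and PARP10 at 0.71 (SE 0.41, adjusted p = 0.445). Without DMSO replicate 1, PARP10 stood at 1.52 (adjusted p = 0.231), above that range. SP100 had 26.3, 29.2 and 27.6 CPM with compound 1, above all 3 DMSO libraries, at 0.37 (SE 0.11, adjusted p = 0.117). It passed without compound 1 replicate 1, the library that stood apart (0.40, adjusted p = 0.0188), as did EIF2AK2 (0.21, adjusted p = 0.0354).

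IFIT1, which rose strongly with SCH772984, had 14.3, 13.8 and 16.5 CPM with compound 1 (log2 fold change -0.08, SE 0.13, adjusted p = 0.816). The groups overlapped, although the libraries at 14.3 and 13.8 lay below every DMSO library. STAT2 stood at 0.19 (SE 0.14, adjusted p = 0.578) and ISG15 at 0.02 (SE 0.22, adjusted p = 0.979). The 95% interval of the log2 fold change was -0.34 to 0.17 for IFIT1, -0.09 to 0.47 for STAT2 and -0.41 to 0.45 for ISG15, so changes within these bounds could not be told from 0. IFIT5 (-0.28, SE 0.12, adjusted p = 0.284) and ADAR (-0.16, SE 0.07, adjusted p = 0.295) had all compound 1 libraries below DMSO, as did 12.1% of all genes.

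OASL (ENSG00000135114, chromosome 12, 121019111 to 121039242), an OAS-like protein that binds RIG-I, had 5, 21 and 7 counts with DMSO, 0, 0 and 0 with compound 1 and 13, 14 and 24 with SCH772984. The compound 1 libraries were the only ones without a read, and the DMSO and SCH772984 libraries overlapped. Taking 3 counts over the group as the floor, OASL was at least 11.3-fold lower with compound 1 than with DMSO, or at least 6.09-fold without DMSO replicate 2. The filter on low counts kept it out of that test. With all 9 libraries in 1 fit it was lower at an adjusted p of 0.0139, and without a filter at 5.96e-05, and these fitted calls rest on a group at 0. Against DMSO, SCH772984 left OASL at a log2 fold change of 0.13 (SE 0.43, adjusted p = 0.793), or 1.00 without DMSO replicate 2 (adjusted p = 0.0993).

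Set directly against each other, the 2 inhibitors left most ISGs at different levels. Of 37 members tested, 26 were higher and 3 lower with SCH772984 than with compound 1 at an adjusted p under 0.05, against 33.7% and 32.6% of 13863 genes. Without the 4 members that pass the filter only through the SCH772984 libraries, these were 22 and 3 of 33. At the unadjusted p, 27 were higher and 5 lower, against 35.2% and 33.8%. The 3 lower members by the adjusted p were again IFITM1, IFITM2 and PLSCR1. IFITM1 differed by -0.96 on the log2 scale (SE 0.13, adjusted p = 1.79e-06), IFITM2 by -1.81 (SE 0.14, adjusted p = 2.92e-10) and PLSCR1 by -2.07 (SE 0.25, adjusted p = 3.14e-07). OASL was at least 12.4-fold higher with SCH772984 than with compound 1, and BST2 was higher by 3.30 (SE 0.40, adjusted p = 3.39e-07). The 2 inhibitors were not distinguished for OAS3 (0.20, 95% interval -0.24 to 0.64, adjusted p = 0.44) or TRIM25 (0.04, 95% interval -0.14 to 0.21, adjusted p = 0.724). IRF9, which rose against DMSO, missed the threshold here (0.64, SE 0.28, adjusted p = 0.0543), and passed with scaling by library size alone (adjusted p = 0.021), with at least 10 counts in every library (0.0197) and with all 9 libraries in 1 fit (0.0473).

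The ISGs lie downstream of ligands, receptors, kinases and factors, and 71 other genes of the interferon pathway were examined by role. The 10 ligand genes gave almost no reads. IFNB1 and IFNL1 had 0 counts in all 9 libraries, as did 8 of the 10, which allows up to 0.0317 CPM. Of the 71 genes, 48 were tested with SCH772984, 25 were higher (52.1%) and 11 lower (22.9%), against 37.2% and 35.5% of all genes, with a median log2 fold change of 0.28. Of the 48, APOL1 and IFNLR1 passed the filter on low counts only through the SCH772984 libraries, and among the other 46, 23 were higher and 11 lower. With compound 1, 46 were tested, 0 were higher and 1 was lower, against 0.490% and 0.374% of all genes. Without compound 1 replicate 1 these were 2 and 3, against 453 and 798 of all 13084 genes tested there. Without any 1 of the other 5 libraries they were 0 and 0, against 5 to 27 higher and 3 to 24 lower over all genes. At an unadjusted p under 0.05 in edgeR, 4 were higher and 4 lower (8.70% each) with compound 1, close to the 7.35% and 7.69% of all genes.

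Of the 6 receptor genes, 5 were tested with SCH772984, 2 were higher and 1 was lower, against 37.2% and 35.5% of all genes. IFNAR1, of the type I receptor, had 111.7, 118.2 and 105.4 CPM with DMSO and 109.1, 109.8 and 109.0 with SCH772984, a log2 fold change of -0.01 (SE 0.07, adjusted p = 0.891), or 0.16 with scaling by library size alone (adjusted p = 0.0267). IFNAR2, with 9 to 19 counts per library, stood at -0.02 (SE 0.39, adjusted p = 0.965), and IFNGR1, for type II interferon, rose by 0.29 (SE 0.09, adjusted p = 0.00279). IFNGR2, its partner chain, had 71.9, 66.3 and 65.2 CPM with DMSO and 41.4, 42.7 and 48.0 with SCH772984, and fell by 0.60 (SE 0.08, adjusted p = 1.1e-08). IFNLR1, for type III interferon and tested only because of its SCH772984 counts, went from 8, 7 and 4 counts to 13, 20 and 27 and rose by 1.16 (SE 0.44, adjusted p = 0.0163), a call lost with DESeq2 (adjusted p = 0.0626), without SCH772984 replicate 2 (0.0538) or 3 (0.0778) and without DMSO replicate 3 (0.101). The receptor-bound kinases JAK1 and TYK2 rose by 0.46 (SE 0.07, adjusted p = 1.29e-07) and 0.40 (SE 0.07, adjusted p = 4.63e-06).

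IRF1, a factor that binds the response element, had 8.36, 8.68 and 7.17 CPM with DMSO and 30.8, 26.2 and 31.1 with SCH772984, and rose by 1.88 (SE 0.13, adjusted p = 4.06e-17). IRF3, the substrate of TBK1, fell by 0.39 (SE 0.08, adjusted p = 1.29e-05).

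The targets of compound 1 are encoded by TBK1 and IKBKE. TBK1 RNA did not pass with SCH772984 (log2 fold change -0.15, SE 0.09, adjusted p = 0.147) or with compound 1 (0.11, SE 0.09, adjusted p = 0.636). IKBKE had 13, 18 and 16 counts with DMSO, 19, 34 and 20 with compound 1 and 74, 60 and 81 with SCH772984. It rose by 1.71 with SCH772984 (SE 0.27, adjusted p = 2.58e-07) and did not pass with compound 1 (0.60, SE 0.33, adjusted p = 0.414), where all 3 libraries lay above DMSO. RNA levels do not give protein levels. At the dose and time used here, the paper reports less IKKε protein with SCH772984 in these cells and a weaker loss of TBK1 protein. By quantitative PCR it reports an IKBKE RNA rise that was not significant and a significant loss of TBK1 RNA. The TBK1 RNA result thus differs from the one here. CGAS, the cytosolic DNA sensor, fell by 1.57 with SCH772984 (SE 0.14, adjusted p = 1.18e-13).

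Of 32 interferon-induced genes outside the 52, 23 were tested with SCH772984, 16 were higher (69.6%) and 4 lower (17.4%), against 37.2% and 35.5% of all genes. Like the members, these genes were listed with earlier results of these data known, so their share is no independent repeat. The 16 include APOL1. APOL1, a trypanosome lytic factor that also passed the filter only through the SCH772984 libraries, went from 3, 8 and 9 counts to 207, 219 and 259 and rose by 4.60 (SE 0.24, adjusted p = 2.5e-21). PSMB9, a subunit of the immunoproteasome, rose by 2.74 (SE 0.20, adjusted p = 6.2e-14) and GBP2, a guanylate-binding protein gene, by 2.63 (SE 0.22, adjusted p = 1e-14). The checkpoint ligand CD274 (PD-L1) had 61, 71 and 59 counts with DMSO, 86, 127 and 114 with compound 1 and 11, 6 and 8 with SCH772984. It fell by 3.39 with SCH772984 (SE 0.31, adjusted p = 2.16e-13), and with compound 1 it stood at 0.75 (SE 0.18, adjusted p = 0.0664). That value passed with DESeq2 (adjusted p = 0.0411), with the replicate block (0.0143), without a filter on low counts (0.008) and without compound 1 replicate 1 (0.88, adjusted p = 0.000961).

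TRIM14, an adaptor of antiviral signalling, was the 1 gene of the 71 that passed with compound 1. It had 68.2, 71.2 and 68.7 CPM with DMSO, 51.0, 52.4 and 53.2 with compound 1 and 34.7, 28.9 and 31.7 with SCH772984, with no overlap among the 3 groups. TRIM14 fell by 0.39 with compound 1 (SE 0.08, adjusted p = 0.0365) and by 1.11 with SCH772984 (SE 0.08, adjusted p = 6.57e-16). The compound 1 call was lost without compound 1 replicate 2 (adjusted p = 0.0621) or 3 (0.106) and without DMSO replicate 1 (0.196), 2 (0.263) or 3 (0.142). PNPT1, a mitochondrial RNA-degrading enzyme, fell by 1.02 with SCH772984 (SE 0.08, adjusted p = 4.55e-16) and stood at -0.02 with compound 1 (SE 0.08, adjusted p = 0.933).

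**Figure D4:**
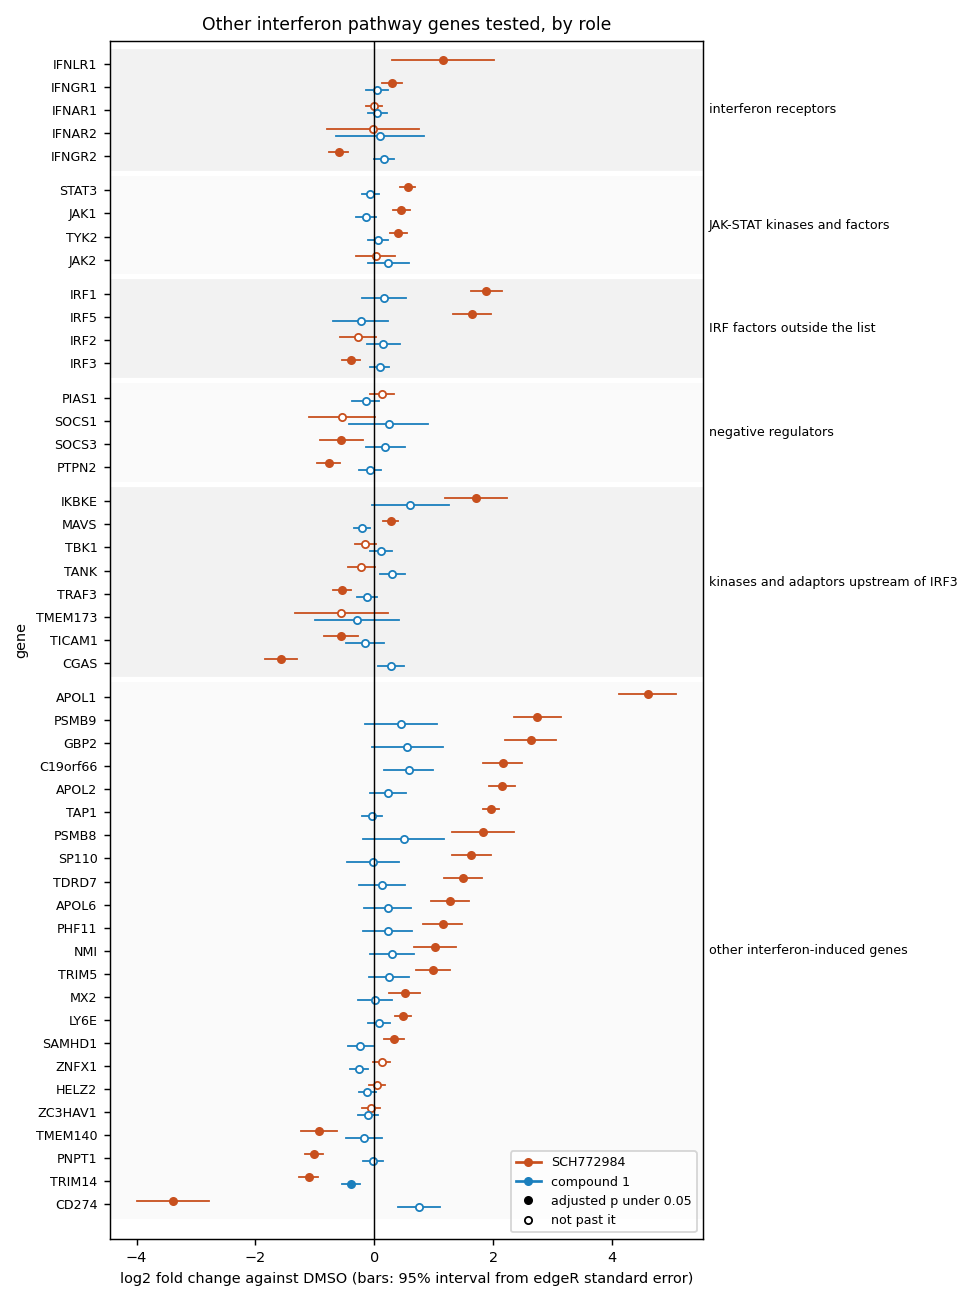
Log2 fold change against DMSO of each tested gene of the 71 other interferon pathway genes, by role, with SCH772984 in orange and compound 1 in blue; bars are 95% intervals from edgeR's standard error, and filled points passed an adjusted p under 0.05. APOL1 and CD274 mark the ends of the orange range, IFNAR1 and IFNAR2 sit near 0, and TRIM14 is the 1 filled blue point.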

How the data were processed

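RNA-Seq of MIA PaCa-2 cells gave 9 libraries in 3 groups of 3. Per the labels, the authors deposited raw read counts per gene. The submitters' processing notes list HISAT2 2.0.5, featureCounts 1.5.0-p3 and the hg38 build, and the strand setting is not given in the sources used here. The table also gives gene lengths in bases, deposited by the authors, which were used for levels per kilobase. Gene names and coordinates came from the table, overlaps and shared 100-base stretches from GENCODE release 29, and promoters from RefSeq (GRCh38.p14).

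Each pair of groups was fitted alone, over all genes, with edgeR 4.0.16 (quasi-likelihood, robust, TMM, filterByExpr with a minimum count of 10 and total of 15) in R 4.3.3. A gene was called at a Benjamini-Hochberg adjusted p under 0.05 over all genes tested. The study's threshold is not said to be adjusted, so the count at an unadjusted p stands beside it. CPM values used TMM factors over the 9 libraries. A gene was at the floor with at most 3 counts in every library of a group, and bounds cover counting error only. Library totals, 9464432 to 13887859 counts, limit the precision of low genes. The fit was tested on simulated data. DESeq2 1.42.0, other scalings, filters, fits and call rules, and leaving out each library, were alternatives.

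Members, gene lists and roles were chosen with earlier results of these data known. Genes named were members called with compound 1, up to 10 members in each direction with the largest change with SCH772984 (10 rose and 3 fell), the most abundant member of each role, members at the floor, and, of the pathway genes, a set of ligands, receptors, kinases and factors plus the 3 with the largest change in each direction. Some pathway genes are not reported here. IFNGR2, IFNLR1 and members outside this rule were named after their values were seen, to complete each role.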

Additional observations from a re-analysis of the deposited data

How the results depend on the processing

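With compound 1, the members called higher numbered 7 at the unadjusted p and 0 when at least 2-fold was also required, and those called lower 1 without a filter, 1 with all 9 libraries in a single fit and 2 at the unadjusted p. Against compound 1, 5 members were lower with SCH772984 at the unadjusted p. The other alternatives that kept all libraries left each count of members within 1.5 times the main count. With libraries left out in turn, 25 to 27 members were higher and 2 to 4 lower with SCH772984 against DMSO, 0 to 3 higher and 0 to 0 lower with compound 1 (3 without compound 1 replicate 1, 0 without any 1 of the other 5 libraries), and 25 to 26 higher and 3 to 5 lower with SCH772984 against compound 1 (5 without compound 1 replicate 1). Over all genes, compound 1 calls were 453 higher and 798 lower without compound 1 replicate 1 and 5 to 27 higher and 3 to 24 lower without any 1 of the other 5 libraries, and they were 189 and 228 without a filter, 91 and 97 with all libraries in a single fit and 117 and 119 with DESeq2. Scaling by library size alone moved the all-gene median of the log2 fold change with SCH772984 from 0.03 to 0.20.

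Signs that turned belonged to values that had not passed. By library size alone, SCH772984 against DMSO gave IFITM3 0.055, TRIM25 0.15 (adjusted p = 0.0419), IFNAR1 0.16 (0.0267), IFNAR2 0.15, IFIT5 0.098, EIF2AK2 0.12 and TBK1 0.026, compound 1 gave PNPT1 0.0085, and SCH772984 against compound 1 gave IFNAR1 0.082 and IFNAR2 0.028. With at least 10 counts in every library, TRIM25 was 0.055, IFIT5 0.0026, EIF2AK2 0.026 and IFNAR1 0.069 with SCH772984, and IFNAR1 0.020 against compound 1. With libraries left out, the log2 fold change with SCH772984 ranged from -0.072 to 0.0104 for IFNAR1, -0.18 to 0.22 for IFNAR2 and -0.26 to 1.00 for OASL. With compound 1 it ranged from -0.0014 to 0.09 for IFNAR1, -0.055 to 0.35 for IFNAR2, -0.031 to 0.32 for IRF1, -0.083 to 0.0497 for PNPT1, -0.096 to 0.0021 for TRIM25, -0.0052 to 0.14 for TYK2, -0.055 to 0.094 for IFIT2, -0.13 to 0.10 for ISG15, -0.13 to 0.29 for USP18, -0.12 to 0.13 for PML and -0.26 to 0.44 for ISG20, and against compound 1 from -0.29 to 0.043 for IFNAR2 and -0.018 to 0.066 for TRIM25. The cause was not tested.

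Replicate numbers did not pair the libraries, since deviations of same-numbered libraries correlated at 0.0176, -0.00723 and 0.041 between SCH772984 and DMSO, 0.138, -0.0181 and 0.0144 between compound 1 and DMSO, and -0.0777, 0.156 and -0.102 between the inhibitors, and not every library correlated best with its own number. With the replicate block, the members' counts were 27 higher and 3 lower, 1 and 0, and 26 and 3, while compound 1 calls over all genes became 193 and 219. Depth limits what can be said of the members outside the 30 with at least 10 counts in every library.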
